A study of Mus musculus with 16 samples.

Results

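RUNX1, RUNX2 and RUNX3 are the DNA-binding subunits of core-binding factor, and CBFβ, the product of Cbfb, is their common partner. The genes encoding them, Runx1, Runx2, Runx3 and Cbfb, were taken by name from the mm10 RefSeq annotation and make up 4 of its 26180 genes. For each gene, every peak that overlapped the gene body or the 50 kb on either side was collected from 12 ChIP-seq peak lists. The 4 loci together spanned 1048 kb and held 291 of the listed peaks over all 12 lists.

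The cells were mouse CD8+ T cells from spleens of OT1 mice. These mice express a transgenic T-cell receptor that recognises an ovalbumin peptide, so the cells stand for 1 antigen specificity in culture. They were activated for 48 h with plate-bound anti-CD3 and soluble anti-CD28 and were expanded for 3 days, with IL-2 at 20 ng/mL. GSK2879552 (GSK), an irreversible inhibitor of the lysine demethylase LSD1, was given at 0.5 μM over activation and expansion, and vehicle (Veh) was given to the other cells. Chromatin was precipitated with 6 antibodies, to LSD1, to RNA polymerase II (Pol II) and to the histone marks H3K4me1, H3K4me2, H3K4me3 and H3K27ac, with 1 library for each antibody and treatment. The age of the donor mice is not given in the sources used here, and 4 input samples were not analysed here.

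With 1 library per group there was no spread between replicates, and no difference between Veh and GSK below was tested. The intervals are Wilson 95% intervals and cover counting error only. Neighbouring peaks are not independent, which these intervals leave out. A peak list grows with the reads behind it, and the lists themselves hold no read numbers. By the study's reporting summary, which is not re-derived here, the libraries of a pair differed in depth, most of all for H3K27ac, with more unique read pairs in Veh than in GSK. Veh was also deeper for H3K4me2, and GSK for H3K4me1 and Pol II. The study also evened read numbers by random picking to compare signals, and its sources do not state whether the listed peaks came from such reads. The part of depth in the differences below was not tested, and values at equal list length are given beside the results they move. Over the genome the H3K27ac lists held 7410 peaks in Veh and 2751 in GSK, and for H3K4me2 the lists held 15219 peaks in Veh and 9437 in GSK. Promoters of all 5 CD8 T-cell markers (Cd3e, Cd8a, Cd8b1, Cd2 and Thy1) carried H3K4me3 in both treatments. Over all genes, 50% carried H3K4me3 in Veh and 51.1% in GSK. Promoters of the B-cell list (0 of 4) and the NK-cell list (0 of 2) carried it in neither. Zbtb7b carried it in both treatments, while Cd4, the other gene of the CD4 T-cell list, did not. In the myeloid list only Spi1 carried it (1 of 4), in Veh and not in GSK, and the part of myeloid cells in the differences below was not tested. Among the CD8 markers, H3K27ac was listed at 4 of 5 in Veh and 0 in GSK, against 20.5% and 8.58% of all genes. Pol II was listed at 3 of the 5 in each treatment, against 29.3% and 24.9%, and Cd8a had neither. In the other lists only Spi1 had H3K27ac or Pol II, both in Veh only.

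Core-binding factor binds DNA through the Runt domain of the RUNX subunit, and CBFβ strengthens this binding without contacting DNA itself. RUNX1 is known for its role in blood stem cells and thymocytes, and RUNX3 for silencing Cd4 and for the cytotoxic program of CD8+ T cells. RUNX2 is best known as a regulator of bone formation. Each Runx gene is transcribed from a distal promoter (P1) and a proximal promoter (P2), while Cbfb has a single promoter. LSD1 removes methyl groups from H3K4me1, which marks enhancers, and from H3K4me2, which marks enhancers and promoters. H3K4me3 marks promoters, and H3K27ac marks active promoters and enhancers.

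Runx1 lies on chromosome 16 (chr16:92601466-92826074, minus strand), with the proximal start site 129 kb downstream of the distal one. Runx2 lies on chromosome 17 (chr17:44495987-44814797, minus strand), with 78.1 kb between its promoters. Runx3 lies on chromosome 4 (chr4:135120645-135177990, plus strand), with 31.9 kb between its promoters. Cbfb lies on chromosome 8 (chr8:105170674-105217989, plus strand). Start sites of other genes fell within the windows of Cbfb (Ces4a, D230025D16Rik, B3gnt9, Tradd and Fbxl8), of Runx2 (Supt3, which overlaps Runx2) and of Runx1 (Gm30224).

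The sequences below come from promoters and LSD1 sites on which the results turn and are printed 5′ to 3′ from the GRCm38 (mm10) reference of RefSeq. Capitals mark the RUNX core motif, searched as TGTGGT and TGCGGT on both strands, so that ACCACA and ACCGCA also count. The first pair shows the 250 bases before the distal start sites of Runx3 and Runx1, on the strand of the gene, because the libraries differ at these promoters. LSD1 peaks reach into both windows, while the H3K4me3 peaks lie downstream of them.
Runx3 distal promoter, chr4:135120395-135120644: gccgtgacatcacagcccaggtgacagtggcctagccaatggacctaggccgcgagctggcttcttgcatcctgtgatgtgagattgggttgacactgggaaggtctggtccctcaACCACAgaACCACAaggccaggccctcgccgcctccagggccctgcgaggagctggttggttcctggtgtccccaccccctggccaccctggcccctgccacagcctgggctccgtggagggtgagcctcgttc
Runx1 distal promoter, chr16:92826075-92826324: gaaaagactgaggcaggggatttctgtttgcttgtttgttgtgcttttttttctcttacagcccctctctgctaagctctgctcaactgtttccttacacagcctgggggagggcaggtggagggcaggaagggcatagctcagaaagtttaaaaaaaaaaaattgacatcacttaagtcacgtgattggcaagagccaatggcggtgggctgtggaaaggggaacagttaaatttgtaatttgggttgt
The Runx3 distal promoter held 2 matches, which began 134 and 126 bases before the start site. Of all 32851 promoters in the RefSeq table, 18.6% held at least 1 match in these 250 bases and 2.01% held at least 2. The upstream windows of the Runx2 distal promoter held 1 match, and those of Runx1 (distal and proximal), Runx3 (proximal) and Cbfb held 0. The window of the Runx2 proximal promoter was not analysed here. A match is only a string of letters and does not show that a RUNX protein bound there.

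The next windows are the 101 bases centred on the summit of distal Veh LSD1 peaks, on the plus strand. They were chosen because they are the strongest such sites at each gene by −log10 p (at Cbfb the only one), with 1 strong Runx2 site that had no GSK peak, at 160 kb. Distances are from the distal start site in the direction of transcription.
Runx1 at 172 kb, chr16:92654052-92654152: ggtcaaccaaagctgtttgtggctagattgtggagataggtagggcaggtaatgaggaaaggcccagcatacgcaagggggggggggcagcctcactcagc
Runx1 at 4.10 kb, chr16:92821928-92822028: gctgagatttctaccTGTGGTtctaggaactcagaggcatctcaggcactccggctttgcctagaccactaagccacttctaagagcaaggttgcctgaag
Runx1 at 205 kb, chr16:92620961-92621061: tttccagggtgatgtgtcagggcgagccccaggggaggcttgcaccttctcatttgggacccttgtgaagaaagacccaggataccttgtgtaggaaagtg
Runx2 at 245 kb, chr17:44569459-44569559: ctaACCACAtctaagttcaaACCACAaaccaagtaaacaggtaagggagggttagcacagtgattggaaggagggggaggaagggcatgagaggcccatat
Runx2 at 160 kb, chr17:44654700-44654800: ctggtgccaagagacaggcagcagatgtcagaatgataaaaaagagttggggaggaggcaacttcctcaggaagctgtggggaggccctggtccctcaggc
Runx3 at -1.5 kb, chr4:135119099-135119199: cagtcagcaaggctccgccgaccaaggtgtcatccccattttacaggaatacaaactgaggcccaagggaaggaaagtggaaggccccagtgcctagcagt
Runx3 at -36.5 kb, chr4:135084145-135084245: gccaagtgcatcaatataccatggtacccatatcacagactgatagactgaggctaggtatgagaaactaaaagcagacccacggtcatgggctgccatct
Cbfb at 95.9 kb, chr8:105266532-105266632: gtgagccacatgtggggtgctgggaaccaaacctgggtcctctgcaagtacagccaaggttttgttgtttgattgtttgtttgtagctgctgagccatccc
Of the 30 distal Veh LSD1 windows at the 4 loci, 8 (26.7%) held a match and 3 held at least 2, among them the Runx2 window at 245 kb. Of all 12818 distal Veh LSD1 windows, 21.0% held a match and 3.51% at least 2. The 2 strongest Runx3 windows held none.

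**Figure D1:**
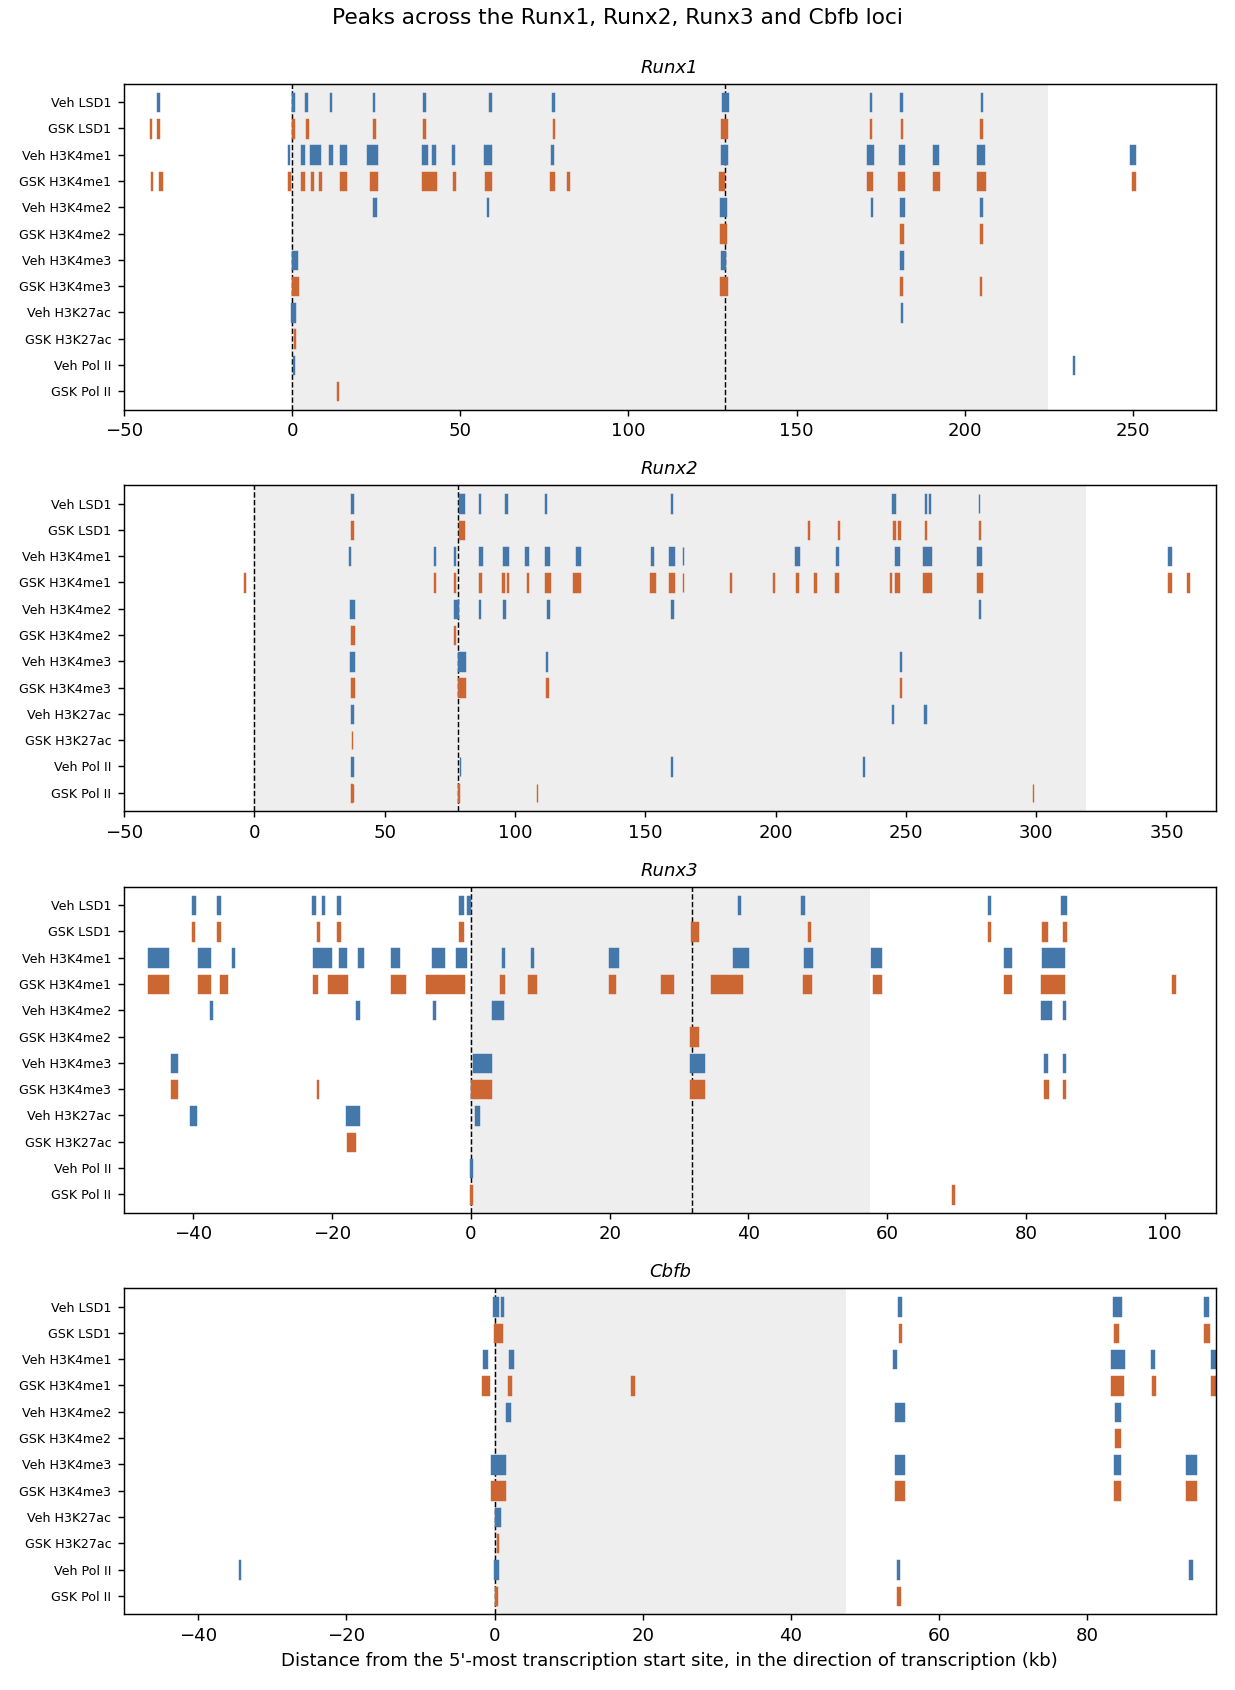
Peaks of the 12 libraries (rows) at the 4 genes against distance in kb from the distal (or single) start site, with Veh in blue and GSK in orange. Bars span each peak with a thin outline, grey spans the gene body and dashed lines mark start sites. H3K4me1 and LSD1 peaks are spread through the introns of Runx1 and Runx2 and upstream of Runx3, whereas Cbfb peaks cluster at promoters.

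The first question was which promoters of the family were marked and whether GSK went with a difference there. H3K4me3 was listed at 6 of the 7 promoters in both treatments, all but the Runx2 distal promoter. Over the genome, 49.4% of promoters carried H3K4me3 in Veh, 50.6% in GSK and 49.1% in both. LSD1 was found at 5 promoters in Veh and 5 in GSK, against 35.2% and 40.7% of all promoters, and at 4 in both, against 30.7%. H3K27ac was found at 3 promoters in Veh and 2 in GSK, against 20.3% and 8.51% of all promoters, but at 1 in Veh and 2 in GSK with both lists cut to equal length by −log10 p. H3K4me1 was found at 3 in Veh and 4 in GSK, against 29.4% and 35.7%, and H3K4me2 at 2 in each, against 38.2% and 27.4%. Pol II was found at 4 promoters in Veh and 3 in GSK, against 28.3% and 24% of all promoters. All 3 promoters with Pol II in GSK also had it in Veh, a state of 21.2% of promoters. Of promoters with H3K4me3 in both treatments, 38.4% had no Pol II peak in either and 42.9% had one in both. Among the 6 such promoters here, those of Runx3 (distal), Runx2 (proximal) and Cbfb had Pol II in both, and Runx1 (proximal) and Runx3 (proximal) had it in neither.

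The Runx3 distal promoter carried the highest Pol II enrichment of the family. Fold enrichment (ChIP signal at the summit or over the region, relative to the background around it) was 8.93 in Veh (96.2nd percentile of its list, −log10 p 28.3). It was 6.75 in GSK (95.6th percentile, −log10 p 21.4). Both Pol II peaks spanned the start site, over chr4:135120523-135120856 in Veh and chr4:135120514-135120857 in GSK, and so lay over the end of the sequence printed above. H3K4me3 there had a fold of 3.33 in Veh and 3.27 in GSK, with −log10 p of 89.8 and 72.6. Its regions were wide, at 2546 bp in Veh and 2766 bp in GSK (97.5th and 98.4th percentile of width). H3K27ac was listed in Veh only, with a fold of 3.02, a state found at 12.1% of all promoters. This peak ranked 5289th of 7410 by −log10 p and was not among the 2751 strongest Veh peaks, the length of the GSK list. An LSD1 peak just upstream of the start site was also listed in Veh only, with a fold of 3.11, a state found at 4.51% of promoters.

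At the Runx3 proximal promoter, H3K4me3 had a fold of 5.27 in Veh and 4.64 in GSK, and no Pol II peak was listed in either. Here an LSD1 peak was listed in GSK only, with a fold of 4.03 (9.92% of all promoters), and so was an H3K4me2 peak, with a fold of 3.67 (1.92% of all promoters). Within 1 kb of their start sites, the promoters of Runx3 thus carried LSD1 in opposite treatments. These were single peaks of modest rank, the Veh one 8081st of 21252 by −log10 p and the GSK one 6844th of 19919. Just outside the distal window, a stronger LSD1 peak was listed in both treatments (−log10 p 37.8 in Veh and 27.5 in GSK).

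At the Runx1 distal promoter, LSD1 was listed in both treatments, with a fold of 5.24 in Veh (−log10 p 22.7) and 4.62 in GSK (−log10 p 12.5). H3K4me3 had folds of 4.88 and 4.85 and H3K27ac folds of 3.31 and 3.86, in Veh and GSK. The Veh H3K27ac peak, 4675th in its list, was also lost at equal list length. Its Pol II peak was listed in Veh only, with a fold of 3.47 (−log10 p 4.97), a state of 7.08% of all promoters. The Runx1 proximal promoter carried LSD1, H3K4me1, H3K4me2 and H3K4me3 in both treatments, and neither H3K27ac nor Pol II in either. Its H3K4me2 fold was 4.62 in Veh and 4.8 in GSK, and it was the only promoter of the family with H3K4me2 in both treatments, which 25.4% of all promoters had. Its LSD1 peaks were among the widest listed, at 1749 bp in Veh and 1992 bp in GSK (99.9th percentile in each list).

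The Runx2 distal promoter, the start of the transcripts known from bone, had no peak in any of the 12 lists. The proximal promoter had LSD1 in both treatments, with a fold of 4.18 in Veh and 5.17 in GSK (−log10 p 11.3 and 16.9). H3K4me3 covered 2828 bp in Veh and 2817 bp in GSK, with folds of 3.17 and 3.11. Pol II had a fold of 4.16 in Veh and 2.75 in GSK. These Pol II peaks did not overlap each other, and the GSK one was near the foot of its list (−log10 p 3.69, 11.6th percentile). H3K4me2 was listed within 1 kb of the proximal start sites in Veh only, with a fold of 3.32 (12.8% of all promoters), while an overlapping GSK peak lay 1.45 kb upstream.

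The Cbfb promoter carried LSD1, H3K4me3, H3K27ac and Pol II in both treatments. Pol II folds were 4.30 in Veh and 4.06 in GSK. H3K4me3 folds were 5.11 in Veh and 5.56 in GSK, with −log10 p of 74.9 and 104. H3K27ac folds were 4.31 and 4.42, but the GSK region spanned 257 bp against 649 bp in Veh. For LSD1, 2 Veh peaks with folds of 4.13 and 3.68 lay under 1 GSK peak with a fold of 4.87. An H3K4me1 peak at the edge of the window, with a fold of 3.38 in GSK, touched the window in GSK only, a state of 9.78% of all promoters. The Veh list held an overlapping peak with a fold of 3.48 that stopped just short of the window, so that the site itself was listed in both treatments. At no other promoter of the family was Pol II, H3K27ac and H3K4me3 listed together in both treatments.

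**Figure D2:**
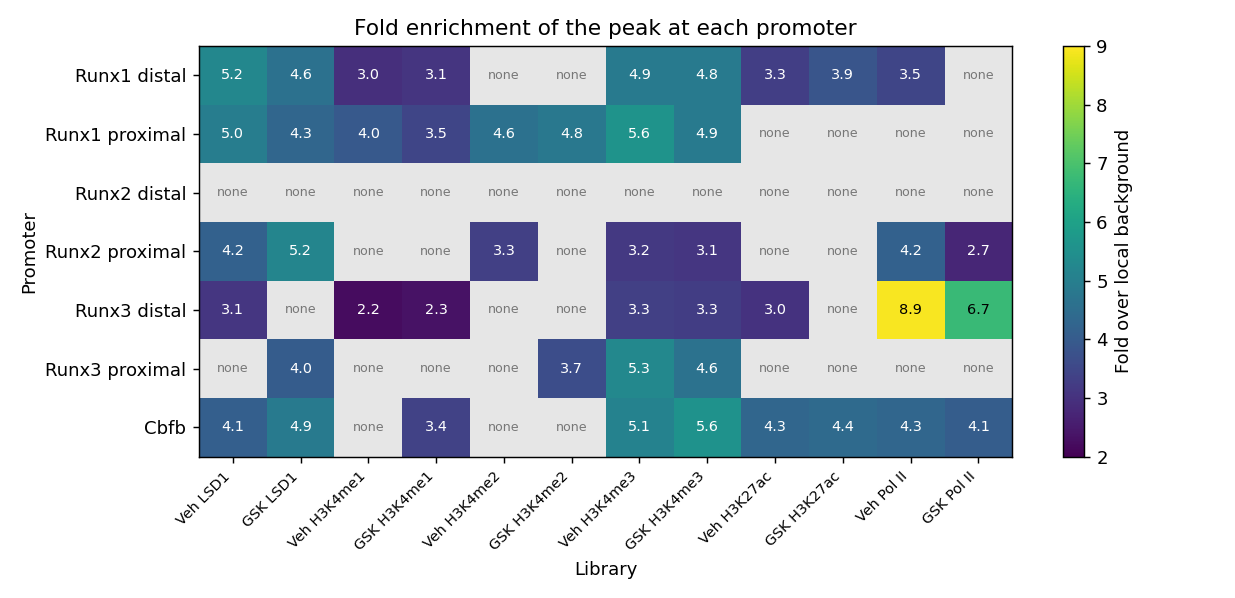
Highest fold enrichment of a peak within 1 kb of the start sites at the 7 promoters (rows) in the 12 libraries (columns), with grey cells for no listed peak. The Runx3 distal promoter had the highest Pol II folds (8.93 in Veh, 6.75 in GSK), and the Runx2 distal row is empty.

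The next question was how many of the LSD1 sites of the family were listed in both treatments. The 4 loci held 39 LSD1 peaks in Veh and 33 in GSK, a ratio of 0.846 (95% interval 0.534 to 1.34) against 0.937 for the whole lists. Of the Veh peaks, 27 (69.2%, 53.6 to 81.4) were overlapped by a GSK peak, against 54.6% of all Veh LSD1 peaks. At distal sites, with the summit over 1 kb from any start site, 19 of 30 Veh peaks (63.3%, 45.5 to 78.1) had a GSK peak, against 35.5% of all distal Veh peaks. At promoters this held for 8 of 9 Veh peaks (88.9%, 56.5 to 98.0), against 83.6% over the genome. By gene, 8 of 10 distal Veh peaks had a GSK peak at Runx1, 4 of 9 at Runx2, 6 of 10 at Runx3 and 1 of 1 at Cbfb. Read from the GSK list, 18 of 25 distal peaks (72.0%, 52.4 to 85.7) overlapped a Veh peak and 7 did not. Over the genome 44.1% of distal GSK peaks overlapped a Veh peak.

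The distal share moved with the strength of the Veh peak. The 19 distal peaks with a GSK partner had a median −log10 p of 12.9 in Veh, against 6.38 for the 11 without, and over the whole list the medians were 9.52 and 5.11. Among distal Veh peaks with −log10 p of at least 10, 14 of 15 at the loci (93.3%, 70.2 to 98.8) had a GSK peak, against 71.3% of 2995 such peaks over the genome. All 4 loci were more densely set with LSD1 peaks than the genome, with 3.70 (Runx1), 2.63 (Runx2), 6.99 (Runx3) and 3.39 (Cbfb) Veh peaks per 100 kb against 0.780. The genome value counts all bases, also those far from genes, whereas the loci are centred on genes and were not set beside other genes. Of the 5 Veh peaks at Cbfb, 2 lay at promoters of other genes.

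Within Runx1, the strongest Veh LSD1 peak lay in intron 5, 172 kb from the distal start site, with a fold of 10.5 (−log10 p 35.6, rank 332 of 21252). Its GSK partner had a fold of 6.81 (−log10 p 15.2). A peak in intron 6 at 205 kb differed the other way, with a fold of 7.67 in Veh and 10.5 in GSK (−log10 p 26.7 and 34.8, rank 605 and 219). The intron 2 peak at 4.10 kb from the distal start site had a fold of 5.55 in Veh and 2.63 in GSK (−log10 p 27 and 4.53). It was the lowest ratio of GSK to Veh fold among the distal pairs of the family, at 0.473. The intron 2 peaks at 39.1 kb and 24.3 kb had higher folds in GSK, at 8.21 against 7.06 and at 6.78 against 5.11. Sites of 1 intron of Runx1 therefore differed in opposite directions between the libraries.

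Within Runx2, the strongest peak of the family by −log10 p lay 245 kb from the distal start site, in an intron of the gene. Its fold was 9.26 in Veh and 6.18 in GSK, with −log10 p of 44.0 and 16.0. The window printed above, centred on its summit, holds 2 RUNX core motifs, both on the left of the summit. The peak at 160 kb, with a Veh fold of 6.65 (−log10 p 14.5), had no GSK peak. It was the strongest Veh peak of the family without one. The enhancer around it carried H3K4me2 and Pol II in Veh only and H3K4me1 in either treatment. Its H3K4me2 peak was near the foot of the Veh list (−log10 p 5.72, rank 15097 of 15219). That peak was not among the 9437 strongest Veh H3K4me2 peaks, the length of the GSK list. The peak at 80.0 kb, beside the proximal promoter, had a fold of 3.23 in Veh and was covered in GSK by the wide promoter peak, so it counts as kept although no separate GSK peak was called.

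At Runx3 the strong sites were upstream of the gene. The peak 1.5 kb before the distal start site had a fold of 7.40 in Veh and 6.40 in GSK (−log10 p 37.8 and 27.5). The peak 36.5 kb upstream had a fold of 7.02 in Veh and 5.56 in GSK (−log10 p 37.7 and 21.2). Peaks 19.1 kb and 40.1 kb upstream had higher folds in GSK, at 5.95 against 4.45 and at 5.42 against 3.75. Inside the gene, the Veh peaks at 38.7 kb and 47.8 kb had no GSK peak. Downstream of the gene, the peak at 85.7 kb had a fold of 5.06 in Veh and 5.52 in GSK. At Cbfb the single distal peak, within Fbxl8, had nearly equal folds of 3.63 and 3.81.

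Over the 19 distal pairs, the fold was higher in GSK in 11 and lower in 8, with a median ratio of 1.07 (0.473 to 1.60). The highest ratio, 1.60, was at the Runx2 site at 80.0 kb, whose GSK partner was the wide promoter peak and not a separate peak. Over all 4545 distal pairs of the genome, 45.6% were higher in GSK and the median ratio was 0.972. Of the 6 sites with a Veh −log10 p of at least 20, 5 had a lower fold in GSK, the exception being the intron 6 site of Runx1. Over the genome 82.9% of 651 such pairs had a lower fold in GSK. Among the 13 weaker pairs of the family, 3 had a lower fold in GSK, against 49.6% of 3894 over the genome. Both groups were picked by their Veh value, and a pair needed a listed GSK peak. This choice by itself shapes the direction of the folds, so no conclusion is drawn from the contrast.

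**Figure D3:**
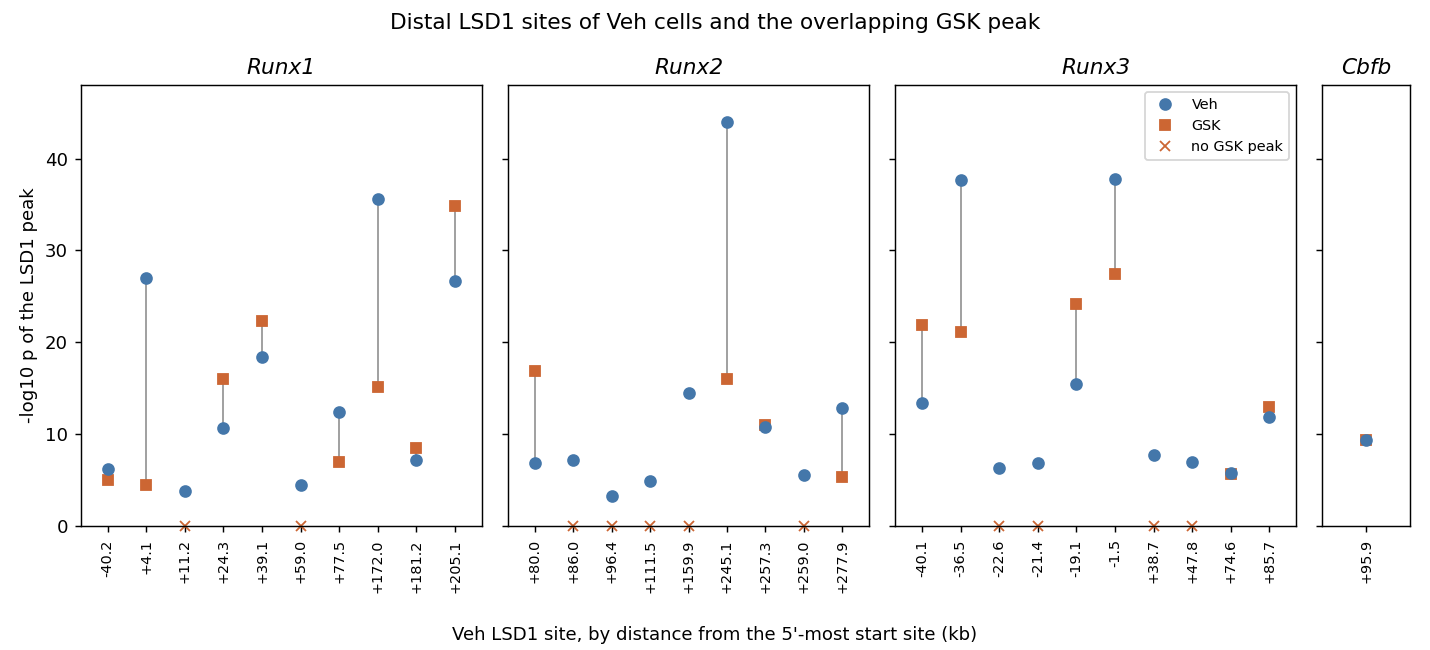
−log10 p of each distal Veh LSD1 peak (blue circle) and of the strongest overlapping GSK peak (orange square), ordered by distance in kb from the distal or single start site. Crosses at 0 mark the 11 of 30 Veh sites with no GSK peak, all of them with a Veh −log10 p of 14.5 or less.

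H3K4me2 is a substrate of LSD1, and the GSK list held fewer H3K4me2 peaks than the Veh list at each of the 4 loci. The loci held 22 H3K4me2 peaks in Veh and 7 in GSK, a ratio of 0.318 (0.139 to 0.727), against 0.620 for the whole lists. Only 6 of the 22 Veh peaks (27.3%, 13.2 to 48.2) were overlapped by a GSK peak, against 55.3% of all Veh H3K4me2 peaks. With both lists cut to equal length, the ratio was 0.438 and its interval (0.185 to 1.04) included 1, and 6 of 16 Veh peaks at the loci (37.5%) and 70.8% of those over the genome were overlapped. By locus, the numbers in Veh and GSK were 6 and 3 at Runx1, 7 and 2 at Runx2, 6 and 1 at Runx3, and 3 and 1 at Cbfb. They include peaks at promoters of other genes, 1 and 1 at Runx2 (Supt3) and 2 and 1 at Cbfb (D230025D16Rik and B3gnt9).

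At Runx1, the H3K4me2 peaks listed in both treatments were those at the proximal promoter and in introns 5 and 6. The intron 6 peak lay beside the LSD1 site at 205 kb, with folds of 5.08 in Veh and 5.45 in GSK. The Veh-only peak next to the LSD1 site at 172 kb had the highest H3K4me2 fold of the family, at 7.22 (97.8th percentile). At Runx3, all 6 Veh peaks lacked a GSK peak, and the 1 GSK peak was that at the proximal promoter. The strongest of the 6, with −log10 p of 13.7, lay 5.32 kb before the distal start site. The next, with −log10 p of 12.9, lay at 85.5 kb, beside an LSD1 site listed in both treatments.

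Putative enhancers were merged H3K4me1 and H3K4me2 peaks of both treatments that touched no H3K4me3 peak and lay over 2.5 kb from any start site. The loci held 52 of the 26676 enhancers, 15 at Runx1, 20 at Runx2, 15 at Runx3 and 2 at Cbfb. H3K4me1 was present in both treatments at 36, in GSK only at 13 and in Veh only at 3, a net gain of 19.2 percentage points (4.30 to 26.7). Over the genome 67.1% had it in both, 22.5% in GSK only and 9.87% in Veh only, a net gain of 12.7 points. At equal list length the net gain at the loci was 6.38 points (-8.01 to 17.9), from 8 GSK-only and 5 Veh-only among 47 enhancers. H3K4me2 was present at 10 of the 52 in Veh and at 0 in GSK. Over the genome 6.3% of enhancers had it in Veh only and 1.83% in both. Of the Veh peaks behind this count, those ranked 13721st and 15097th (Runx2) and 15038th (Runx3) by −log10 p lay outside the 9437 strongest. Those at the other enhancers lay within this number, the length of the GSK H3K4me2 list. A count of 0 here means only that no peak passed the cutoff of the authors' caller.

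At Runx2, 6 of 20 enhancers had H3K4me1 in GSK only and 0 in Veh only. At Runx1 the numbers were 3 and 1, at Runx3 3 and 2, and at Cbfb 1 and 0. LSD1 was present in both treatments at 9 of the 52 enhancers, in Veh only at 7 and in GSK only at 1, against 7.37%, 10.1% and 4.58% of all enhancers. Of the 16 with it in Veh, 56.3% thus also had it in GSK, against 42.1% of 4672 over the genome. These states count any overlap with the enhancer and so turn on its edges. At the Runx3 enhancer at -35.7 kb, counted as Veh only, the GSK peak of the same LSD1 site stopped just short. At the Runx3 enhancer at 48.5 kb, counted in both, the Veh and GSK peaks did not overlap each other. Of the 10 enhancers with Veh H3K4me2, 7 were among these 16, against 42.9% of 2169 over the genome. Of the 13 enhancers with H3K4me1 in GSK only, 2 had an LSD1 peak in either treatment, against 8.58% of 6013 over the genome. H3K27ac was present at 2 enhancers, 1 at Runx2 and 1 at Runx3, in Veh only, a state of 2.7% of all enhancers, and 0 of the 52 had it in both, against 0.652%. At the Runx3 enhancer, the Veh region reached in from upstream, and an overlapping GSK region stopped just short. The H3K27ac site itself was thus listed in both treatments there.

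**Figure D4:**
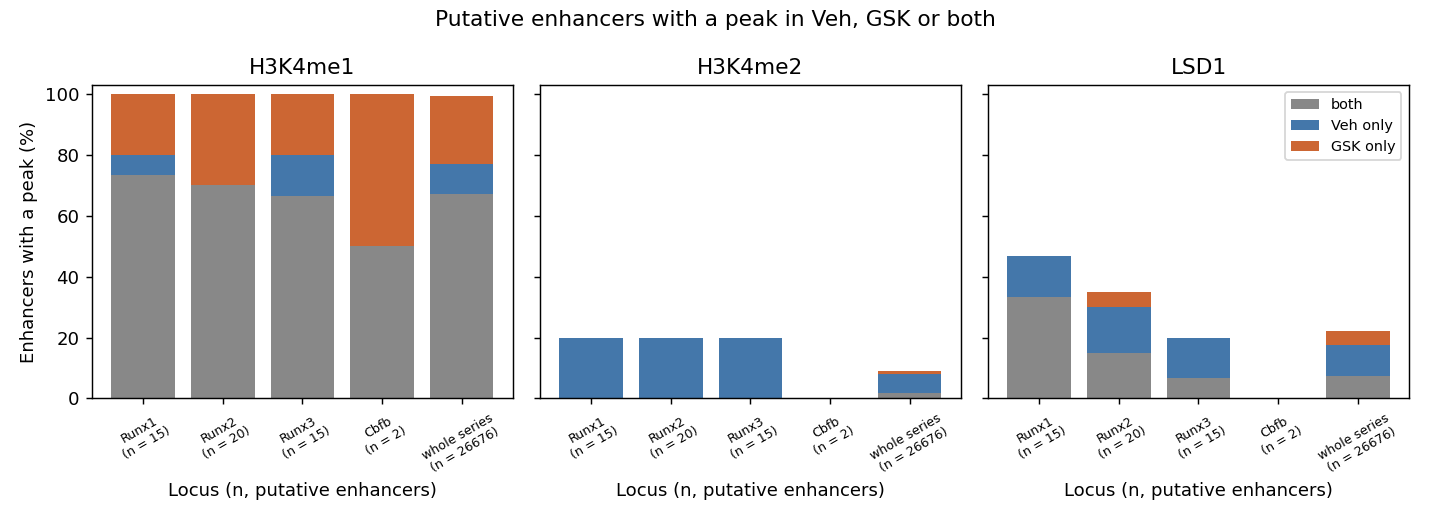
Share of putative enhancers at each gene and in the whole series with an H3K4me1, H3K4me2 or LSD1 peak in both treatments (grey), Veh only (blue) or GSK only (orange). At Runx1, Runx2 and Runx3 every enhancer with H3K4me2 had it in Veh only, and at Runx2 no enhancer had H3K4me1 in Veh only.

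H3K27ac was listed 9 times at the loci in Veh and 4 times in GSK, a ratio of 0.444 (0.145 to 1.36) against 0.371 for the whole lists. Of the 9 Veh peaks 4 overlapped a GSK peak, against 35.2% over the genome, and all 4 GSK peaks overlapped a Veh peak, against 95%. At equal list length both treatments held 4 peaks, a ratio of 1. The GSK peaks lay at the Runx1 distal promoter, the Cbfb promoter, the Supt3 promoter within Runx2, and 17.3 kb upstream of Runx3. That upstream Runx3 region had a fold of 3.44 in Veh and 4.03 in GSK, and spanned 1754 bp in Veh and 1160 bp in GSK. The Veh-only peaks included the Runx3 distal promoter, a region 40.0 kb upstream of Runx3 that overlapped an LSD1 peak of both treatments, and introns of Runx2 at 257 kb and 245 kb.

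H3K4me1 and Pol II numbers were close between treatments. H3K4me1 peaks numbered 57 in Veh and 65 in GSK, a ratio of 1.14 (0.801 to 1.62) against 1.17 for the whole lists. Of the Veh peaks, 52 (91.2%) had a GSK peak, against 87.8% over the genome. H3K4me3 peaks numbered 16 and 18, a ratio of 1.13 against 1.07, and all 16 Veh peaks had a GSK peak, against 97.3% over the genome. Pol II peaks numbered 11 and 10, and 4 of the 11 Veh peaks had a GSK peak, against 39.1% over the genome. At Runx3, H3K4me1 peaks had low folds for their significance. The median fold was 2.24 in Veh and 2.33 in GSK, at the 1.70th and 4.29th percentile of the lists, with median −log10 p at the 63.3rd and 71.6th percentile. The background behind each fold was not analysed here.

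RUNX proteins act with corepressors and coactivators, so promoters of 14 cofactor genes were read in the same lists. H3K4me3 was present at 13 in both treatments, all but Runx1t1, against 50% of all genes in Veh and 51.1% in GSK. LSD1 was present at 10 in Veh and 13 in GSK, against 36.3% and 41.6% of all genes. The 3 GSK-only genes, in a state of 9.74% of all genes, were Runx1t1, Crebbp and Sin3a, the last a scaffold of histone deacetylase complexes. Pol II was present at 6 in Veh and 5 in GSK, against 29.3% and 24.9% of all genes. The difference was Tle3, a Groucho-type corepressor, with its Pol II peak at the 57.8th percentile of fold in Veh and no peak in GSK. Over all genes, 7.33% had Pol II in Veh only, and these are single differences in single libraries. The H3K4me3 percentile of Cbfa2t3 was 34.0 in Veh and 62.3 in GSK, and that of Crebbp, a histone acetyltransferase, 46.9 and 27.5. The Pol II percentile of Suv39h1, a histone H3K9 methyltransferase, was 53.0 in Veh and 81.0 in GSK.

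Among 13 genes known to be regulated by RUNX proteins in T cells, 11 carried H3K4me3 in both treatments, all but Cd4 and Itgae, beside the shares of all genes given above (50% and 51.1%). Pol II was present at 6 in Veh and 5 in GSK, beside 29.3% and 24.9% of all genes. The difference was Tbx21, which encodes the transcription factor T-bet, with a Pol II peak at the 75.7th percentile in Veh and none in GSK, a state of 7.33% of all genes. The Pol II percentile of Gzmb (granzyme B) was 44.5 in Veh and 66.4 in GSK, that of Prf1 (perforin) 77.6 and 62.0, and that of Eomes 25.5 and 35.7. LSD1 was present in Veh only at Cd8a and Cd8b1, which encode the CD8 coreceptor, and in GSK only at Tcf7. With 4.44% of all genes in the first state and 9.74% in the second, these are single differences in single libraries.

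Each member was also set beside all genes with a peak in at least 6 of the 12 lists, by the mean absolute difference of fold percentile over the 12 lists. For each list the highest percentile over the promoters of a gene was taken, so a profile can mix promoters. A gene without a peak in a list was put at the bottom of the scale, so shared absences also bring genes near. The genes nearest to Runx3 were Slc2a1 (3.97 percentile points), Slc16a1 (4.63) and 4930578L24Rik (4.82), where the median over 11363 genes was 34.2. For Runx2 they were Mob3a (4.62), Irf2bpl (5.77) and Picalm (5.91). For Cbfb they were Fads2 (7.28), Lats1 (7.36) and Pbrm1 (8.57), and for Runx1 they were Kdm2b (8.56), Qser1 (9.0) and Ctif (9.71).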

How the data were processed

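ChIP-seq peak lists of 12 libraries (6 antibodies, Veh and GSK) were used. Per the methods of the study, the authors kept Bowtie2 alignments to unique positions of mm10 and took out PCR duplicates (Samtools). MACS2 peaks of each library, with p-values up to 0.001, were deposited. By the study's reporting summary, input served as the MACS2 control, though not which of the inputs went with which library, and the fragment length is not given in the sources used here. The authors deposited a fold enrichment (a ratio to local background) and a −log10 p and −log10 q for each peak. The LSD1 and Pol II lists hold narrow peaks with summits and begin at −log10 p of about 3, whereas the histone lists hold broad regions and begin at −log10 q of about 3. A list can mix enrichment with sequencing depth, so folds were read beside their percentile within a list.

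From these lists, overlaps of at least 1 bp were computed with Python 3.11.15, pandas 2.3.3 and NumPy 2.4.6, and the code was tested on simulated data. Start sites came from curated RefSeq transcripts (GRCm38.p6); those of a member within 2 kb were joined into 1 promoter, and promoter windows reached 1 kb to either side. Narrow peaks were classed by summit. Broad regions were classed by overlap with a promoter window, or else by midpoint. Enhancers followed the definition of the study. Intervals were Wilson intervals, and that of the ratio came from the GSK share of both lists. Samples were grouped by their labels. The members and gene lists were chosen with earlier results of these data known. Distal LSD1 sites were named in order of −log10 p, at most 4 per locus in full. Up to 4 genes per list were named, by the largest difference in percentile of H3K4me3 or Pol II fold. For each member, the 3 nearest genes by fold percentile were named. Alternatives were equal list length, a flank of 20 kb, a −log10 p minimum of 10, covered bases, and other overlap rules. The sites with a Veh −log10 p of at least 20, the distal LSD1 sites beyond 4 per locus and the enhancer states by LSD1 were looked at after their values were seen.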

Additional observations from a re-analysis of the deposited data

How the results depend on the processing

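Of 46 alternative values for the 10 main comparisons, 43 stayed within the counting interval of the main value. For the number of promoters with a peak, the bound was 1.5 times instead. Reversal could be called only where the main interval excluded equality, for the H3K4me2 ratio and the H3K4me1 net gain, and 0 reversed there. The Pol II ratio was 0.909, but 1.11 with a flank of 20 kb. LSD1 retention at distal sites was 93.3% for Veh peaks with −log10 p of at least 10, against 63.3% for all. LSD1 retention at promoters was 100% when a GSK peak within 1 kb was allowed, and 100% for the 3 Veh peaks with −log10 p of at least 10, against 88.9%. At equal list length, the H3K27ac ratio was 1 in place of 0.444, and the H3K4me1 net gain was 6.38 points in place of 19.2, so both depend on list length. The H3K4me2 ratio ranged from 0.25 to 0.438 over its alternatives, and its interval reached 1.04 at equal list length. The combinations of promoter and library with a peak numbered 45 of 84, 51 with windows of 2.5 kb and 43 at equal list length, where Veh H3K27ac was at 1 promoter in place of 3 and GSK stayed at 2. With windows of 2.5 kb, Veh H3K4me1 was at 5 promoters in place of 3 and GSK at 5 in place of 4. GSK LSD1 was then at 6 promoters in place of 5, and Veh LSD1 stayed at 5. The Runx3 distal promoter had LSD1 in both treatments at that width. Leaving out a library was not run, since each group has 1. No paired analysis was possible because each group compared has 1 library, so that Veh and GSK share fewer than 2 replicate numbers. A site without a peak is only a site below the cutoff in that library, at that library's depth.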
